A study of Caenorhabditis elegans with 2 samples.

Results

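The nuclear-encoded respiratory chain genes of Caenorhabditis elegans were taken as the nuclear protein-coding genes whose annotated symbol begins with cox-, nuo-, ucr-, cyc- or sdh, or is isp-1, mev-1, gas-1 or atp-1 to atp-5. This rule found 41 genes of 19973 nuclear protein-coding genes, and the other 19932 served for comparison. By complex they are 7 genes of complex I, 5 of complex II, 7 of complex III, 2 of cytochrome c, 15 of complex IV and 5 of complex V, the ATP synthase. The rule leaves out other subunit genes of complexes I and V, of which 28 and 7 were counted apart. Of the 15 genes of complex IV, 7 encode structural subunits and 8 encode assembly factors.

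The data are peak lists from chromatin immunoprecipitation and sequencing (ChIP-seq) of eGFP-tagged FOS-1, a basic leucine zipper transcription factor of the Fos family. There was a single group: whole L4 larvae, males and females pooled, of strain OP304, genotype unc-119(ed3) III; wgIs304, in which wgIs304 is the insertion that carries tagged fos-1. It had 2 biological replicates, and no other strain, stage or treatment was compared, so all differences described are between genes. Whole animals were used, so binding in a few cells and weak binding in many cells cannot be told apart. The ce11 lists analysed were the set kept at the irreproducible discovery rate threshold (IDR, which scores how far replicate rankings match), with 248 regions, the pooled list with 3527, the replicate 1 list with 30000 and the replicate 2 list with 29345. The last 3 include background by design, and a region in them need not be a binding site. The read depth is unknown.

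The respiratory chain sits in the inner mitochondrial membrane. Complexes I and II pass electrons from NADH and succinate to ubiquinone, complex III passes them to cytochrome c, and complex IV (cytochrome c oxidase) passes them to oxygen. The proton gradient built on the way drives ATP synthesis by complex V. Most subunits are encoded in the nucleus and imported, while a small set is encoded by mitochondrial DNA.

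A single member, cox-5A, had an IDR summit in its promoter, defined as the stretch that begins 1000 bp before an annotated 5′ end and stops 200 bp after it. That is 1 of 41 members (2.44%, exact 95% interval 0.0617 to 12.9), against 160 of 19932 other protein-coding genes (0.803%). With only 1 gene the share cannot be told from the background at this number of genes. In the pooled list 8 of 41 members had a promoter summit (19.5%, interval 8.82 to 34.9), against 1523 other genes (7.64%). Within the top 1000 pooled regions there were 4 members (9.76%, interval 2.72 to 23.1), against 549 other genes (2.75%). The best pooled ranks of the 8 members had a median of 968 (range 8 to 1623). The other genes that had a pooled promoter summit had a median of 1513 (range 2 to 3527). Among the 8, the 5 structural subunits of complex IV, singled out after values were seen, had a median of 766. The other 3 had 1349. All intervals cover counting error only, and no test over the gene list was made.

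The cox-5A region was among the strongest of the whole list. cox-5A (WBGene00012553) encodes a subunit of cytochrome c oxidase and lies at chrIII:12905491-12906619 on the plus strand. Its region, at chrIII:12905028-12905371, ranked 8 of 248 in the IDR set with a signal of 94.1, and no other protein-coding gene had the summit in its promoter. Its −log10 q of 2.45 was the highest value of the list, which 143 of the 248 regions shared, so it does not rank the region among them. The summit was intergenic, 291 bp upstream of the 5′ end. In the replicate 1 list the region ranked 22 with a signal of 40.8, and in the replicate 2 list it ranked 21 with a signal of 50.7. The replicate summits lay 21 bp from each other. Both replicates therefore placed it near the top of lists of about 30000 regions, and it was the only member with a promoter summit among the top 248 regions of either list. The signal is the peak caller's own value, and it is compared only within a list. The other 7 members of the pooled list were weaker, with signals of 19.6 to 27.8 and −log10 q of 0.148 to 1.07. The IDR set was the top 248 of the pooled list by signal. Any pooled region outside it therefore lies under its lowest signal, 31.1, by construction. The median of the pooled list was 19.3, so the weakest of the 7 members lay near it.

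The sequences at the summits are printed here because the letters under each summit can be set against the motif search that follows. The sequences are read from ce11 (RefSeq WBcel235) on the strand of the gene, and the 11 bases centred on the summit are in capitals. The cox-5A window runs 75 bp to each side of the summit and the others 30 bp.
cox-5A, chrIII:12905125-12905275, plus strand: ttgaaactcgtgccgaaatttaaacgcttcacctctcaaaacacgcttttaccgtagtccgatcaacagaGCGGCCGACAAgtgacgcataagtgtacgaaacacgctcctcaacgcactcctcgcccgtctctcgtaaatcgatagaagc
cox-6A, chrIII:5080742-5080802, plus strand: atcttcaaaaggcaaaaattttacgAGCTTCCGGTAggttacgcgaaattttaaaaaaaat
cox-6B, chrIII:2786010-2786070, plus strand: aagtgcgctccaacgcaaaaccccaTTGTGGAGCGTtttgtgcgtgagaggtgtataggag
cox-6C, chrIV:126400-126460, plus strand: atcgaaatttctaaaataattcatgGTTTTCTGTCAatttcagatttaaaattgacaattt
cox-10, chrII:12679804-12679864, plus strand: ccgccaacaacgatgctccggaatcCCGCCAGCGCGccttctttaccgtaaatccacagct

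Over windows of 1 length, 100 bp to each side of the summit, the G and C content of the 9 member regions ran from 31.8% at cox-10 to 53.2% at cox-5B, with 42.3% at cox-5A. The median over all 1408 pooled promoter summits was 36.3%, so member regions lay on both sides of it.

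**Figure D1:**
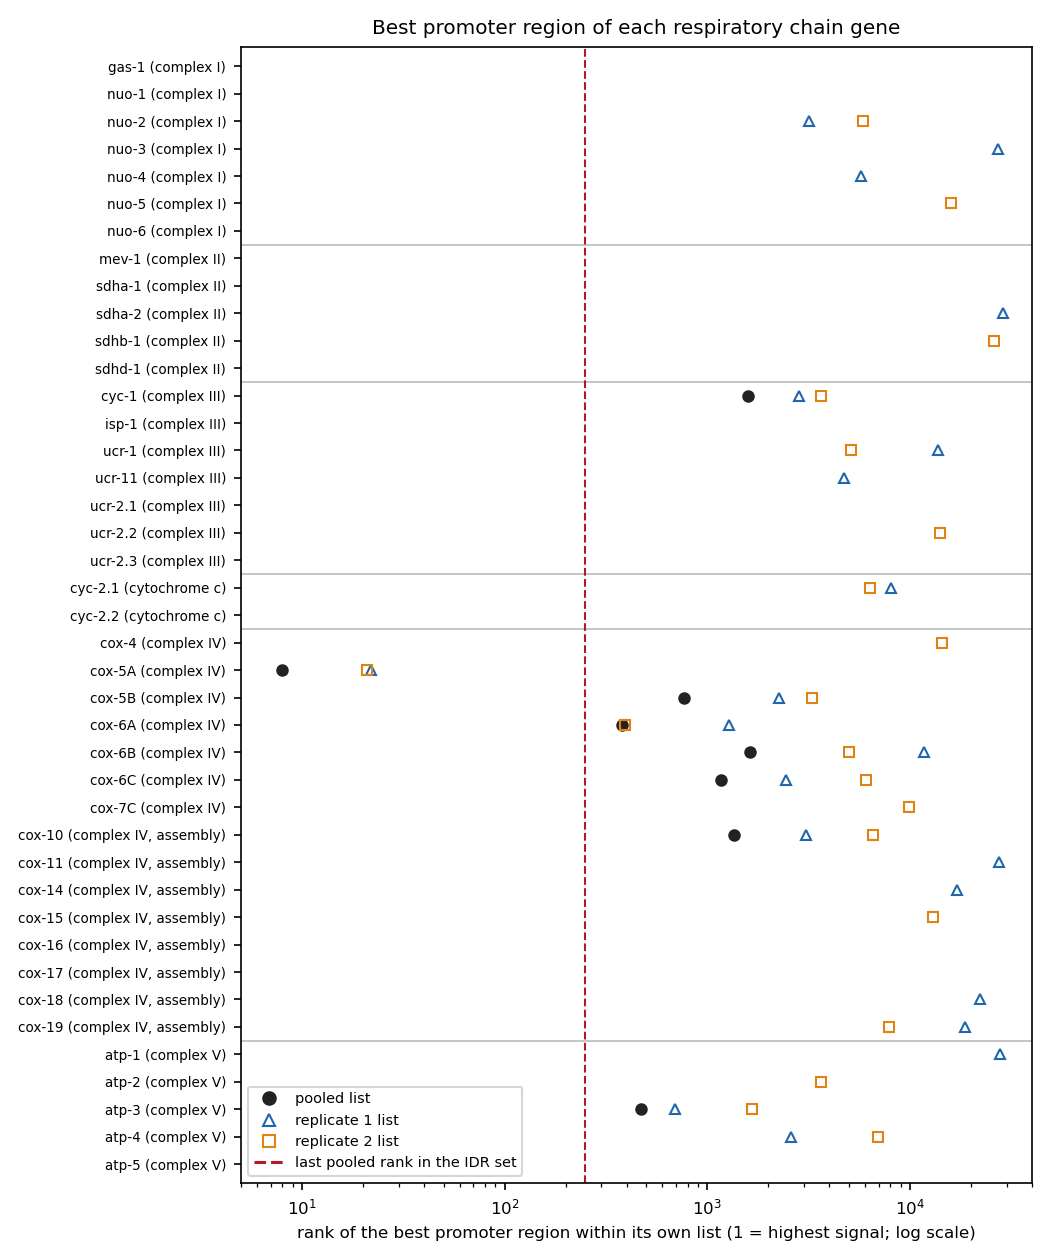
Rank of the best promoter region of each of the 41 genes (rows, by complex) within the pooled list (filled circles), the replicate 1 list (triangles) and the replicate 2 list (squares), on a log axis with rank 1 at the left. A gene with no symbol had no region in its promoter, and the dashed line marks rank 248, the last pooled rank in the IDR set, with only cox-5A to its left.

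Complex IV held 6 of the 8 members with a pooled promoter region, 6 of its 15 genes (40%, interval 16.3 to 67.7). Among the structural subunits of cytochrome c oxidase, the enzyme that reduces oxygen, 5 of 7 had a promoter region in the pooled list (71.4%, interval 29 to 96.3). These were cox-5A, cox-5B, cox-6A, cox-6B and cox-6C, while cox-4 and cox-7C had none there. This subset was singled out after its values were seen. Of the other 34 members, 3 had one (8.82%, interval 1.86 to 23.7), a share close to the 7.64% of other protein-coding genes. Complex IV subunits averaged 1413 bp of promoter window, against 1288 bp for the other 34 members and 1460 bp for other protein-coding genes. Of the complex IV subunits 3 of 7 had several 5′ ends (42.9%), against 7 of the other 34 members (20.6%) and 27.4% of other protein-coding genes. The bearing of window size and number of 5′ ends on the counts was not tested.

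cox-6A, whose mammalian counterpart is a regulatory subunit, had the next strongest member region, at chrIII:5080600-5080943. It ranked 378 in the pooled list with a signal of 27.8, outside the IDR set, and its summit lay 952 bp upstream. A weaker region 744 bp upstream ranked 1222 with a signal of 21. The best region of the replicate 1 list ranked 1287 (signal 12.6) and that of the replicate 2 list 393 (signal 16.9). The summit lay 26 bp from F54D8.7, an annotated snRNA gene at chrIII:5080798-5080898 on the opposite strand. The gene had no pooled summit with a window of 500 bp upstream.

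cox-5B had its pooled summit closest to a 5′ end of all members, 11 bp upstream, in the region chrI:9788542-9788885, at rank 766 with a signal of 23.3. In replicate 1 the region ranked 2255 (signal 11.1) and in replicate 2 it ranked 3272 (signal 10.9). The replicates thus placed it alike, well below their strongest regions.

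cox-6C had a pooled summit 301 bp upstream, in chrIV:126258-126601, at rank 1169 with a signal of 21.3. The nearest replicate 1 region ranked 2443 (signal 11) and the nearest replicate 2 region 13382 (signal 7.27), so it ranked far lower in replicate 2. A stronger replicate 2 region lay 619 bp upstream, at rank 6054 (signal 9.33). The same summit lay 499 bp upstream of grld-1, a gene on the other strand.

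cox-6B had the weakest member region of the pooled list, chrIII:2785868-2786211, at rank 1623 with a signal of 19.6. Its replicate 1 region ranked 11713 (signal 7.21) and its replicate 2 region 5020 (signal 9.81). The summit fell in an intron of a long cox-6B transcript and 162 bp upstream of a downstream 5′ end. It was also in the promoter windows of Y71H2AM.20, which was the nearest at 92 bp, and of nduc-2, a complex I subunit gene, at 812 bp. cox-6B was therefore lost when a summit counted only for the nearest gene or only the outermost 5′ end was used.

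The remaining subunits had regions in replicate 2 only. cox-4 had one at rank 14436 (signal 7.07) and cox-7C one at rank 9924 (signal 8.06). The cox-4 signal is near the median of that list, 7.02, and the cox-7C signal lies above it.

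Assembly factors of complex IV insert its cofactors or help build it. Of the 8, 1 had a pooled promoter region (12.5%, interval 0.316 to 52.7), against 7.64% of other protein-coding genes. It was cox-10, which encodes the enzyme that converts heme B to heme O, in chrII:12679662-12680005, at rank 1349 with a signal of 20.5. In replicate 1 it ranked 3061 (signal 10.4) and in replicate 2 it ranked 6534 (signal 9.13). The summit, 120 bp upstream, lay inside Y38E10A.30, an annotated 58 bp noncoding RNA gene. It was also 188 bp upstream of Y38E10A.33. cox-19 had summits of both replicates within 200 bp of each other, at ranks 19142 and 7919, but none in the pooled list. cox-11, cox-14 and cox-18 had a region in replicate 1 only and cox-15 in replicate 2 only, and cox-16 and cox-17, the copper chaperone, had none in any list.

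Of the 5 complex V genes under the symbol rule, 1 was in the pooled list (20%, interval 0.505 to 71.6), against 7.64% of other protein-coding genes. It was atp-3, which encodes the subunit that confers oligomycin sensitivity. Its region, chrI:5429806-5430149, ranked 472 with a signal of 26.4, and its summit lay 70 bp upstream of the 5′ end. In replicate 1 it ranked 690 (signal 14.4) and in replicate 2 it ranked 1670 (signal 12.6), with summits 6 bp from each other. The summit also lay 179 bp upstream of F27C1.2 on the other strand, and inside the noncoding RNA genes F27C1.16 and F27C1.17. atp-2, the beta subunit, had a region only in replicate 2 (rank 3622, signal 10.6). atp-1, the alpha subunit, had one only in replicate 1 (rank 27947, signal 4.9). atp-4 had one in each, at rank 2577 in replicate 1 and 6971 in replicate 2, at different places, and atp-5 had none.

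**Figure D2:**
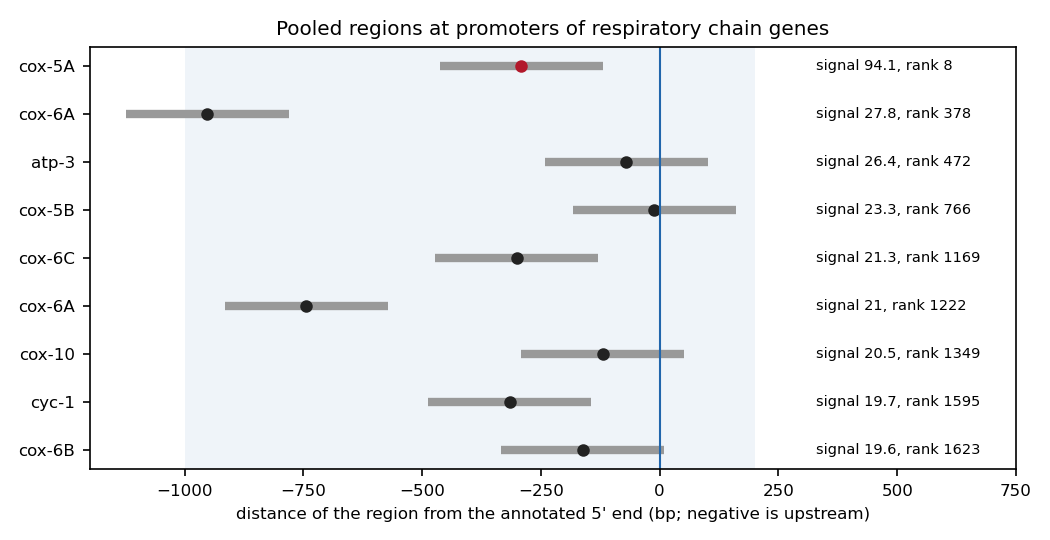
Position of each of the 9 pooled regions at the 8 gene promoters relative to the nearest annotated 5′ end (bp, negative upstream), ordered by rank. Grey bars are the 344 bp regions, dots the summits (red for cox-5A), with signal and rank beside them, the shaded band the promoter window, and 7 of the 8 best summits lie within 350 bp of the 5′ end, that of cox-6A being the exception.

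Complex III had 1 of 7 genes in the pooled list (14.3%, interval 0.361 to 57.9), against 7.64% of other protein-coding genes. cyc-1 encodes cytochrome c1, and its region, chrI:8024566-8024909, ranked 1595 with a signal of 19.7 at 316 bp upstream. It ranked 2838 in replicate 1 (signal 10.6) and 3629 in replicate 2 (signal 10.6). Of the core protein genes, ucr-1 had a region in each replicate (rank 13807 in replicate 1 and 5137 in replicate 2) at different places, ucr-2.2 one in replicate 2, and ucr-2.1 and ucr-2.3 none. isp-1, the Rieske iron-sulfur protein, had none in any list, and ucr-11 had one in replicate 1 at rank 4738.

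None of the members of complex I or II had a pooled promoter region, against 7.64% of other protein-coding genes. This covers only genes under the symbol rule, and of 28 other complex I subunits, counted below, 1 had a pooled region, nduc-2. The exact intervals reach 41% for the 7 genes of complex I and 52.2% for the 5 genes of complex II. Neither 0 can therefore be told from the background. The best of the complex I members was nuo-2, a subunit of the peripheral arm, at rank 3165 in replicate 1 (signal 10.3) and 5844 in replicate 2 (signal 9.42). nuo-4 had a region at rank 5745 in replicate 1 and nuo-3 at 27266 there, and nuo-5 had one at 15889 in replicate 2. gas-1, nuo-1 and nuo-6 had none in any list. In complex II, sdha-2 (rank 28889 in replicate 1) and sdhb-1, the iron-sulfur subunit (rank 25913 in replicate 2), had a region near the bottom of a list, and sdha-1, sdhd-1 and mev-1, the cytochrome b subunit, had none.

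Cytochrome c itself is encoded by cyc-2.1 and cyc-2.2. cyc-2.1 had weak promoter regions, at rank 8084 in replicate 1 (signal 8.08) and 6326 in replicate 2 (signal 9.21), and cyc-2.2 had none. A strong IDR region lay just beyond the cyc-2.1 window, with its summit 1049 bp upstream, at chrIV:4749889-4750232 (rank 13, signal 88.6). That summit lay in the promoters of rpl-20, a ribosomal protein gene, and Y17G9B.5. Counting overlap of the region rather than its summit, or a window of 2000 bp upstream, added cyc-2.1 to the members with an IDR region, and the wider window also added atp-3.

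In all, 21 of 41 members had a promoter region in the replicate 1 list (51.2%, interval 35.1 to 67.1), against 39.6% of other protein-coding genes. When a region counted only for the gene with the nearest 5′ end, 13 members remained in replicate 1 (31.7%), under the 34.1% of other genes, so the direction turned. The replicate 2 list had 20 members (48.8%, interval 32.9 to 64.9), against 39.8% of the others. 13 members had a region in both lists, 8 only in replicate 1, 7 only in replicate 2 and 13 in neither. Summits of both replicates within 200 bp of each other were found for 9 members (22%, interval 10.6 to 37.6), against 12.4% of other protein-coding genes, and 8 of the 9 were the members of the pooled list. The pooled list was made from the same alignments, so that match is largely built in. The 41 genes spread over all nuclear chromosomes. Of the 4 on X (gas-1, sdha-1, ucr-2.1 and ucr-2.2) none had a pooled region (interval 0 to 60.2), against 7.64% of other protein-coding genes. On 4 genes this cannot be told from the background.

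Beyond cox-5A, 7 members had an IDR summit within 5000 bp of a 5′ end but none in the promoter (17.1%, interval 7.15 to 32.1), against 426 of the other protein-coding genes (2.14%). The distance was chosen after values were seen and nothing was tested. One of the 7 is cyc-2.1, described above. Regions lay just past the 3′ ends of 2 of them. For atp-1 the summit was 46 bp past the end of the gene (rank 92, signal 42.7), and for nuo-4 it was 168 bp past the end (rank 106, signal 40.2). Neither was in the promoter of a protein-coding gene. For atp-3 a further IDR summit lay 1408 bp upstream, in the 3′ UTR of the neighbouring F27C1.2 (rank 148, signal 36.2). For cox-18 the nearest summit, 3083 bp upstream, was in the promoters of cct-8, a chaperonin subunit gene, and Y55F3AR.2. For cox-11 it was 3668 bp upstream, in the promoters of rpl-12 and lin-54. For cox-14 it lay 4135 bp upstream, where the annotated 3′ UTRs of best-18 and cts-1, the citrate synthase gene, overlap. The median distance over the 41 genes was 68491 bp.

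**Figure D3:**
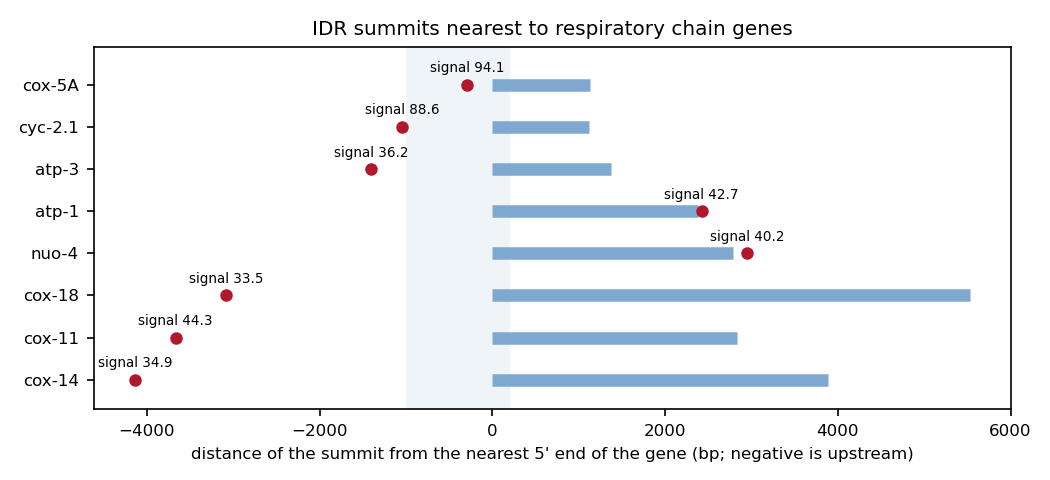
IDR summits (dots, labelled with the authors' signal) within 5000 bp of a 5′ end of 8 respiratory chain genes, plotted by distance from that 5′ end in bp, with bars for the gene from that 5′ end to its 3′ end. Only the cox-5A summit lies in the shaded promoter window, and those of atp-1 and nuo-4 lie 46 and 168 bp past the 3′ end.

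The AP-1 site that Fos and Jun proteins bind, TGACTCA or TGAGTCA on either strand, was not found at these regions. Within 100 bp of the summit it was in 0 of the 9 member regions (up to 33.6%), against 63 of all 1408 pooled promoter summits (4.47%). It was not in the cox-5A window, whereas 14 of 126 IDR promoter summits had it (11.1%). The CRE, TGACGTCA, was in 0 of 9 member regions and 1.07% of pooled promoter summits, and the GA repeat GAGAGAG in 0 of 9 and 8.66%. GATAA was near 2 member summits, those of atp-3 and cyc-1, and 44.7% of pooled promoter summits, and ATTGG, the CCAAT box, near 1, the weaker cox-6A summit, and 33.9%. At 9 regions none of these differences is detectable, and a match or its lack is a description of the letters only.

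The promoters themselves, 250 bp upstream to 50 bp downstream of the outermost 5′ end, held no AP-1 site in any of the 41 members (up to 8.6%), against 3.63% of other protein-coding genes. The CRE was in none, against 1.52%. The CCAAT box was in 16 of 41 (39%) and 45.5% of others, GATAA in 23 of 41 (56.1%) and 57.6% of others, and the GA repeat in cox-5B alone (2.44%) and 6.79% of others.

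Other lists of mitochondrial and energy genes gave a mixed picture in the pooled list, set against the same 7.64%. Other complex I subunits, outside the symbol rule, had 1 of 28 (nduc-2, at the cox-6B region) and other complex V subunits 1 of 7 (hpo-18, rank 3393). Coenzyme Q synthesis and other complex IV assembly factors each had 0 of 8. The mitochondrial ribosome had 3 of 70 (4.29%, interval 0.893 to 12), led by mrpl-36 at rank 468. Mitochondrial import had 3 of 13 (23.1%, interval 5.04 to 53.8), with tin-44 at rank 769 and tomm-20, an outer membrane receptor, at 1624. The adenine nucleotide and phosphate carriers had 1 of 6, ant-1.1, the ADP/ATP carrier, at rank 1459.

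The TCA cycle and pyruvate dehydrogenase list had 4 of 21 (19%, interval 5.45 to 41.9), led by pyc-1, pyruvate carboxylase, at rank 304 with a signal of 29.6, and dld-1, the shared lipoamide dehydrogenase, at rank 1460. Glycolysis had 5 of 18 (27.8%, interval 9.69 to 53.5), led by gpd-2, a glyceraldehyde-3-phosphate dehydrogenase, at rank 379. Cytosolic ribosomal proteins had 29 of 82 (35.4%, interval 25.1 to 46.7), led by rpl-3 at rank 4 with a signal of 111. None of these lists but the ribosomal one, with 9 of 82, had an IDR promoter summit. The share of the respiratory chain genes thus lay among those of other metabolic lists, with overlapping intervals, and nothing particular to the chain is shown by it.

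**Figure D4:**
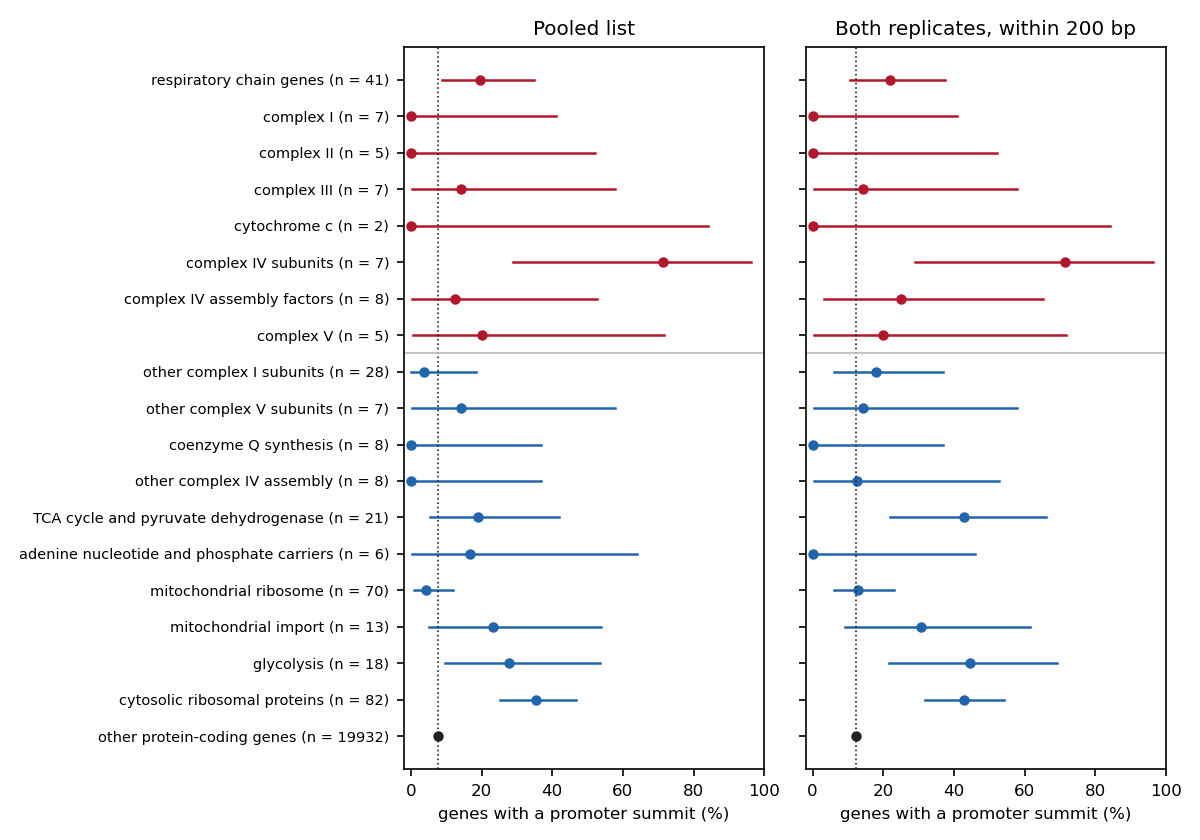
Share of genes with a promoter summit in the pooled list (left) and with summits of both replicates within 200 bp (right), in percent, with exact 95% intervals, for the respiratory chain genes and their complexes (red), other lists (blue) and other protein-coding genes (black, dotted line). Complex IV subunits, at 71.4% in both panels, lie highest, on 7 genes.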

How the data were processed

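Peak lists of 2 biological replicates of 1 group were used. The deposited lists on build ce11 give for each region a signal, the authors' peak caller's own value with no stated scale, and a −log10 q-value, also the authors'. In the files' own provenance lists, deposited by the authors, each replicate list was called on 1 alignment with a control alignment, the pooled list on both, and the IDR set comes from these lists. The peak caller, aligner and IDR threshold were not given in the sources used here. Lists on ce10 were not used here.

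Regions were ranked by signal within a list. Genes and 5′ ends came from Ensembl release 115, and bases from the RefSeq WBcel235 genome, the same assembly. Intervals are exact Clopper-Pearson, with Python 3.11.15, scipy 1.17.1 and matplotlib 3.10.9. The assignment of summits was tested on simulated data. The members and lists were chosen with earlier results of these data known, so counts were set beside those of other protein-coding genes and no list was tested. Genes were named where they were members, or among the 3 best-ranked of another list. All members were accounted for, and the complex IV subunits were set apart after their values were seen. pet-100 and pet-117, 2 symbols of the other complex IV assembly list, had no match. The alternatives were other windows, owner rules, member sets and list depths. p-values are not given because only 1 group exists.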

Additional observations from a re-analysis of the deposited data

Results flagged for a closer look

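The replicate 2 list held 18 regions on mitochondrial DNA, which encodes other subunits of complexes I, III, IV and V and is outside the comparisons above. The replicate 1, pooled and IDR lists held 0, although the pooled list was called on both alignments. Region widths also differed, at 63 to 364 bp in the replicate 2 list, 370 bp in replicate 1 and 344 bp in the other lists. A counting error for the zeros is therefore not given. Of the 18 summits, 12 lay in 7 of the 12 mitochondrial protein-coding genes, with names from RefSeq: 3 in ND5, 2 in ND2, 2 in ND4, 1 each in ND1, ND3 and ND4L, all of complex I, and 2 in CYTB of complex III. The other 6 lay outside protein-coding genes, and none lay in a mitochondrial gene of complex IV or V. The share of mitochondrial DNA that each gene takes up was not computed, so these counts do not compare the complexes. The signals of the 18 regions ranged from 19.7 to 366 and their ranks from 1 to 201 in that list. Among nuclear regions of replicate 2 the cox-5A region ranked 6 and the best cox-6A region 375. The cause of the difference between replicates was not tested.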

How the results depend on the processing

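Of 66 recomputed values, 56 stayed within 1.5-fold of the main count or rank. A further 9 moved more, on the same side of the background where one was computed, and 1 changed its side. The 66 include values for complex IV subunits, added after the data were seen. Some of the 56 could not have moved, such as the replicate 2 count on nuclear chromosomes only and the 0 AP-1 sites within 50 bp. The tally therefore does not measure how robust the results are. Members with an IDR promoter summit numbered 1 in the main analysis, 3 with 2000 bp upstream (cyc-2.1 and atp-3 added, so 3 subunits; background 1.11%) and 2 with any overlap of the region (background 0.883%). They numbered 1 in the IDR-sized top of the lists of either replicate alone, cox-5A each time. The pooled count, 8 of 41 (19.5%, background 7.64%), ranged from 7 to 10 and its median rank, 968, from 766 to 1259. With 2000 bp upstream it was 10 of 41 (24.4%, background 11%). Adding other complex I and V subunits gave 10 of 76, a lower share (13.2%, background 7.64%), and 1 of 76 in the IDR set (1.32%, background 0.804%). The value that changed its side was in replicate 1. There the 21 members (51.2%, background 39.6%) became 13 when only the gene with the nearest 5′ end counted (31.7%, background 34.1%). They became 9 in as many top regions as the pooled list holds (background 7.01%) and 42 of 76 with other complex I and V subunits (background 39.6%), a larger set by construction. In replicate 2 the 20 became 13 with the 500 bp window (31.7%, background 25.2%), 4 in that top (background 6.75%) and 38 of 76 with the larger set (background 39.7%). Complex IV subunits in replicate 2, 7 of 7 (background 39.8%), became 3 in that top (background 6.74%). In the pooled list they ranged from 4 to 5 of 7 (background 5% to 11%). This split was chosen after seeing the data. Where the construction itself does not show the cause, the cause was not tested. No paired analysis was possible because there is only 1 group. Depth is unknown, so what it limits cannot be stated. With 5 to 15 genes a complex, moderate differences between complexes are not detectable.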

Other observations

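Annotated noncoding RNA genes, piRNA genes left out, overlapped 5 of the 9 pooled regions at member promoters (55.6%, exact 95% interval 21.2 to 86.3), against 131 of all 1408 pooled regions with a promoter summit (9.3%). This was looked at after the values were seen and was not tested. Both cox-6A regions overlapped the same snRNA gene, and the regions of atp-3, cox-6C and cox-10 overlapped 4 genes annotated as ncRNA, 58 to 129 bp long. The cox-5A, cox-5B, cox-6B and cyc-1 regions overlapped none.

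Of the 8 members with a pooled region, 4 shared its summit with the promoter window of another protein-coding gene (atp-3, cox-6B, cox-6C and cox-10). Over the pooled list, 227 of 1408 promoter summits (16.1%) were in the window of more than 1 protein-coding gene. That share counts summits and not genes, and a shared summit belongs to more than 1 gene. It is therefore not a matching background for the count of members, and the share over all genes was not computed.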
